A study of Schmidtea mediterranea with 48 samples.

Results

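The transcript followed here is smedwi-1 (dd_Smed_v4_659_0_1), 1 of 26563 transcripts in the deposited count table. It was taken by its identifier, and no other transcript of the same assembly component was listed. The count table carries identifiers alone, so the name smedwi-1 is outside knowledge of this identifier, other neoblast or tissue markers could not be looked up, and the labelled tissue could not be checked against defining genes.

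smedwi-1 encodes a PIWI protein, a member of the Argonaute family whose relatives bind piRNAs and silence transposons. In the planarian Schmidtea mediterranea its transcript marks neoblasts, the stem cells that are the only dividing cells of the adult body and the source of all new tissue. After an amputation, neoblasts divide and gather at the wound, where their progeny form the blastema, the bud of new tissue. In a piece of whole tissue, more neoblasts and more smedwi-1 RNA per neoblast cannot be told apart.

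The 48 libraries hold poly(A) RNA from wound faces cut out of tail fragments of strain CIW4, with 5 wounds per library and 3 libraries in each of 16 groups. In the 10-feeding experiment, animals were fed double-stranded RNA of myoD, a muscle transcription factor, or of the nematode gene unc-22 as control. In the 6-feeding experiment they were fed double-stranded RNA of follistatin (fst), a secreted inhibitor of Activin-type signals, or of unc-22. Wounds were taken right after amputation (0 hpa, hours post amputation) and at 6, 24 and 48 hpa. The sample labels give 10 feedings over 5 weeks for the first experiment, whereas the series text gives 8; both give 6 feedings, over 3 weeks, for the second. Whether the 3 libraries of a group stem from different animals is said in neither source, so p-values measure the spread between libraries, which may be technical. Efficiency of the knockdowns was not measured here, because the target transcripts carry no names in the files.

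smedwi-1 was deeply counted, with 5942 to 18837 reads per library out of totals of 7169717 to 22065480. Counting error alone was therefore 0.729% to 1.3% of a value. Levels are given as CPM (counts scaled to a common library size) after TMM scaling of all 48 libraries together. The coefficient of variation between the 3 libraries of a group ran from 0.833% to 10.2%, with a median of 3.51%. One library stands apart: the submitters' label for fst 48 hpa replicate 1 notes a high level of human contamination. In it the most counted transcript of the table took 4.19% of reads, against 6.02% to 11.6% in the other 47. Fold changes, rises and calls of fst at 48 hpa are given with and without it. Elsewhere it is included unless stated, since it also enters the spread estimated for the other 6-feeding groups. The plots, the variance shares, the biological coefficients of variation and the exact permutation test include it.

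**Figure D1:**
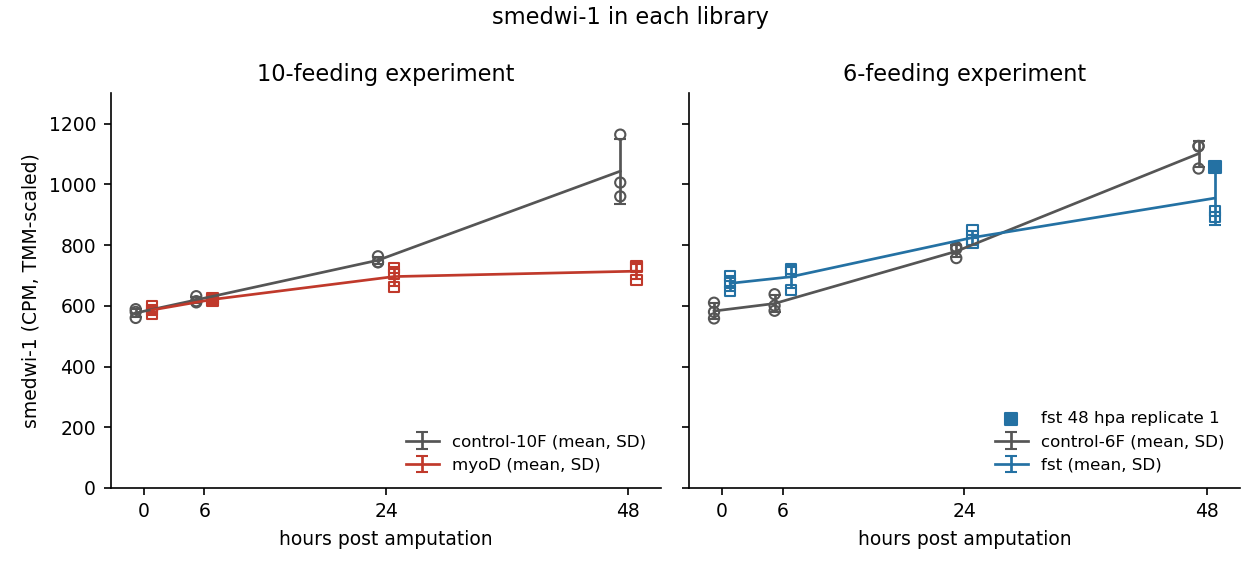
smedwi-1 level (CPM, TMM-scaled, vertical axis from 0) against hours post amputation in each library (open symbols) with group means and SD (lines and bars) for controls and RNAi of each experiment. Controls climb through 24 to 48 hpa, to 1044 and 1102 CPM; myoD RNAi libraries stay at 686 to 730 CPM at 48 hpa, and the filled square is fst 48 hpa replicate 1.

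In controls, smedwi-1 rose after amputation, by 24 hpa and further by 48 hpa. In the 10-feeding controls the 3 libraries held 560, 589 and 580 CPM at 0 hpa and 615, 632 and 611 CPM at 6 hpa. At 24 hpa they held 743, 744 and 763 CPM, and at 48 hpa 1164, 1006 and 961 CPM. The libraries of each time lay wholly above those of the time before, as was so for 16.8%, 19% and 13.8% of all transcripts at the steps to 6, 24 and 48 hpa. The step at 6 hpa was small, and the 3 libraries of 48 hpa were the most spread of any group. On the log2 scale smedwi-1 was 0.36 higher at 24 hpa than at 0 hpa (SE 0.06, adjusted p = 1.95e-05) and 0.83 higher at 48 hpa (SE 0.06, adjusted p = 1.44e-12), a 1.78-fold difference. Among all transcripts tested, 30.8% passed the test at 24 hpa and 43.6% at 48 hpa, and 4.16% rose as far as smedwi-1 or farther by 48 hpa. The change at 6 hpa did not pass (log2 fold change 0.09, 95% interval -0.03 to 0.21, adjusted p = 0.281), where 19.9% of transcripts did.

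Each step between neighbouring times had a larger mean gain than the one before, but the steps last longer each time. The gains are therefore not rates, and a change in rate was not tested. smedwi-1 in these controls gained 43.2 ± 10.6 CPM (standard error) from 0 to 6 hpa, 131 ± 9.04 CPM from 6 to 24 hpa and 294 ± 62.1 CPM from 24 to 48 hpa. Both later steps passed the test (adjusted p = 0.00101 and 1.55e-06, against 28% and 10.4% of transcripts passing).

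In the 6-feeding controls, which are separate libraries, smedwi-1 also rose at 24 and 48 hpa. They held 558, 610 and 580 CPM at 0 hpa, 601, 584 and 638 CPM at 6 hpa, 788, 794 and 757 CPM at 24 hpa, and 1053, 1127 and 1125 CPM at 48 hpa. The libraries of 0 and 6 hpa overlapped, and those of 24 and 48 hpa lay wholly above those of the time before, as for 14.2% and 15.7% of transcripts. smedwi-1 was 0.44 higher on the log2 scale at 24 hpa (SE 0.08, adjusted p = 0.000435) and 0.93 higher at 48 hpa (SE 0.08, adjusted p = 5.19e-09), a 1.91-fold difference. The shares of all transcripts passing were 15.5% and 31.8%. The steps from 6 to 24 hpa and from 24 to 48 hpa also passed (adjusted p = 0.00563 and 0.000564, against 6.43% and 4.65% of transcripts), while the step to 6 hpa did not (log2 fold change 0.07, 95% interval -0.09 to 0.24, adjusted p = 0.689, against 6.59%).

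Between the controls of both experiments, smedwi-1 did not pass the test at any time. In a fit of all 48 libraries, the 6-feeding minus 10-feeding difference in log2 level was 0.02 at 0 hpa (95% interval -0.12 to 0.15), -0.03 at 6 hpa (-0.16 to 0.11), 0.06 at 24 hpa (-0.08 to 0.19) and 0.08 at 48 hpa (-0.06 to 0.21). Adjusted p-values in edgeR were 0.924, 0.785, 0.831 and 0.746. Of all transcripts, 5.88%, 33.9%, 1.72% and 0.477% passed at these 4 times. Number of feedings and experiment cannot be told apart in this comparison, and the sign at 0 and 6 hpa turned under other settings.

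**Figure D2:**
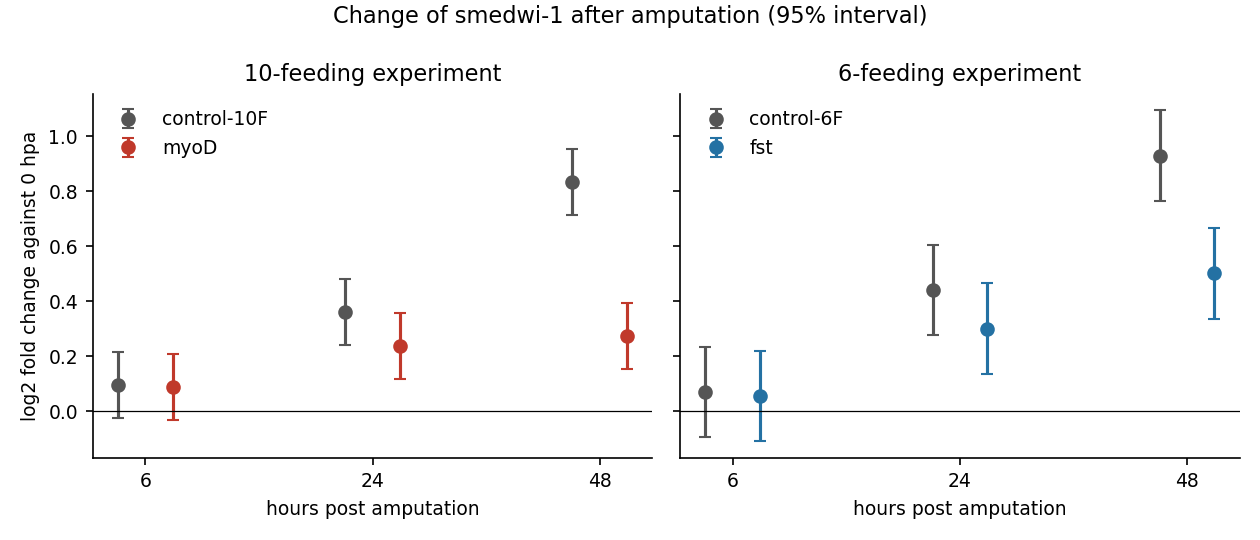
Log2 fold change of smedwi-1 against 0 hpa of the same treatment (vertical axis) at 6, 24 and 48 hpa, as estimate and 95% interval from edgeR. At 48 hpa the controls stand at 0.83 and 0.93, fst RNAi at 0.50 and myoD RNAi at 0.27.

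After myoD RNAi, smedwi-1 rose by 24 hpa, and no further change passed the test between 24 and 48 hpa. Its libraries held 586, 575 and 598 CPM at 0 hpa, 626, 616 and 621 CPM at 6 hpa, 704, 724 and 662 CPM at 24 hpa, and 730, 686 and 727 CPM at 48 hpa. The 24 and 48 hpa libraries overlapped each other. Those of 24 hpa lay above those of 6 hpa, as for 15.6% of transcripts, and those of 48 hpa above those of 0 hpa, as for 14.8%. Against 0 hpa, smedwi-1 was 0.24 higher on the log2 scale at 24 hpa (SE 0.06, adjusted p = 0.00452) and 0.27 higher at 48 hpa (SE 0.06, adjusted p = 0.00228), where 18% and 10.3% of transcripts passed. The step from 24 to 48 hpa was 0.04 (95% interval -0.08 to 0.16, adjusted p = 0.735, against 11.8% passing). That from 6 to 24 hpa was 0.15 (adjusted p = 0.0943, against 13.1%), and the change from 0 to 6 hpa was 0.09 (adjusted p = 0.331, against 17%).

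Compared with control at the same time, myoD RNAi left smedwi-1 lower at 48 hpa. There the 3 myoD libraries, at 686 to 730 CPM, lay wholly below the 3 control libraries, at 961 to 1164 CPM, as was so for 18.7% of transcripts. The mean was 714 ± 24.9 against 1044 ± 107 CPM (SD, n = 3), 31.6% lower, with a log2 fold change of -0.54 (SE 0.06, 95% interval -0.66 to -0.42, adjusted p = 2.6e-08). Of all transcripts, 25.6% passed the test in this comparison, 12.9% as lower, and 5.83% had a fold change as low as that of smedwi-1 or lower. The call held under all 13 alternative settings run, with log2 fold changes from -0.63 to -0.48.

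At the earlier times the myoD effect on smedwi-1 did not pass the test. At 0 hpa the log2 fold change was 0.02 (95% interval -0.10 to 0.14, adjusted p = 0.984) and at 6 hpa it was 0.01 (-0.11 to 0.13, adjusted p = 0.967), with overlapping libraries. Both signs turned under other settings. At 24 hpa the myoD libraries (662 to 724 CPM) lay below the control libraries (743 to 763 CPM), 7.17% lower in the mean, but the log2 fold change of -0.11 did not pass (95% interval -0.23 to 0.01, adjusted p = 0.294). At 0, 6 and 24 hpa 0.588%, 0.565% and 5.84% of transcripts passed, and 12.2% of transcripts had libraries wholly below control at 24 hpa.

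The myoD effect on smedwi-1 differed between times. The test of the effect by time passed with an adjusted p of 2.78e-05, as did 11.2% of transcripts. Of the rise seen in control means from 0 hpa, myoD RNAi reached 63.4% by 24 hpa (110 against 174 CPM) and 27.4% by 48 hpa (128 against 468 CPM). The change from 0 to 48 hpa was 0.56 smaller on the log2 scale after myoD RNAi (SE 0.08, adjusted p = 2.29e-05, against 12.9% of transcripts passing). The same difference at 24 hpa was -0.12 (SE 0.08, adjusted p = 0.49, against 0.833%). These separate differences were chosen after the values had been seen. Averaged over the 4 times, the log2 effect was -0.16 (SE 0.03, adjusted p = 0.000285, against 19.1%). An exact two-sided permutation test of 12 against 12 libraries, with labels exchanged within each time, gave p = 0.0132. A single time, with 3 against 3 libraries, cannot go below an exact permutation p of 0.1.

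**Figure D3:**
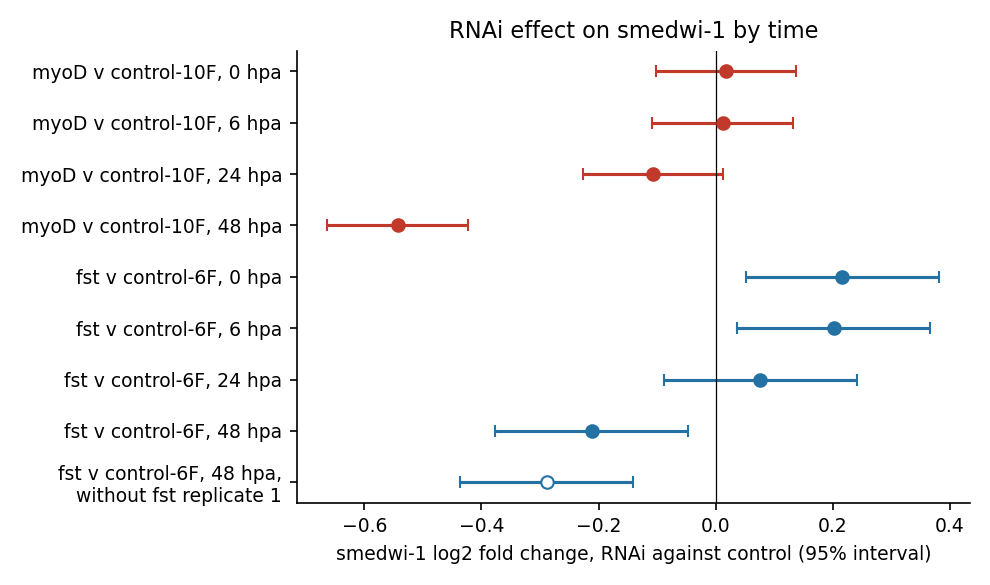
Log2 fold change of smedwi-1 in RNAi against the control of the same experiment and time (horizontal axis), as estimate and 95% interval from edgeR. The myoD effect is near 0 until 6 hpa and -0.54 at 48 hpa; the fst effect is 0.22 at 0 hpa and -0.21 at 48 hpa, or -0.29 without fst replicate 1 (open symbol).

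After fst RNAi, smedwi-1 lay above control until 24 hpa and below it at 48 hpa. The fst libraries held 697, 676 and 650 CPM at 0 hpa, 653, 713 and 722 CPM at 6 hpa, 818, 806 and 851 CPM at 24 hpa, and 1057, 894 and 914 CPM at 48 hpa. At 0, 6 and 24 hpa all fst libraries lay above all control libraries, 15.7%, 14.5% and 5.8% higher in the mean. Libraries wholly above control were found for 11.9%, 8.91% and 9.69% of all transcripts at these times. The log2 fold changes of 0.22 (95% interval 0.05 to 0.38, adjusted p = 0.288), 0.20 (0.04 to 0.37, adjusted p = 0.255) and 0.08 (-0.09 to 0.24, adjusted p = 0.873) did not pass the test over all transcripts, where 0.646%, 0.982% and 0.842% did. With only the 6 libraries of 0 hpa fitted, the difference at 0 hpa passed (0.21, adjusted p = 0.0268). No share of all transcripts passing is given for that smaller fit, so how common such a call was there is not known. Among 14 alternatives run at 0 hpa, 13 gave no call, with an adjusted p up to 0.657 in edgeR. Without fst 48 hpa replicate 1, the log2 fold changes at 0, 6 and 24 hpa were 0.22, 0.20 and 0.07. They did not pass in that edgeR fit either (adjusted p = 0.0835, 0.082 and 0.694, against 1.77%, 3.14% and 2.1% of transcripts).

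The call at 48 hpa changed with the library noted for human contamination and with the tool. With all libraries, the fst mean was 955 ± 89.2 against 1102 ± 42.5 CPM in controls (SD, n = 3), 13.3% lower, and the log2 fold change of -0.21 did not pass (95% interval -0.38 to -0.05, adjusted p = 0.11, against 7.3% of transcripts). Replicate 1 of fst, at 1057 CPM, reached into the control range of 1053 to 1127 CPM. That overlap depended on the scaling. The TMM factor was 0.923 for fst replicate 1 and 1.06 and 1.08 for replicates 2 and 3. Scaled by total counts alone, replicate 1 held 975 CPM, between the 948 and 982 CPM of replicates 2 and 3. By the same scaling the controls held 1202, 1240 and 1246 CPM. With TMM scaling and without replicate 1, the other 2 libraries lay below all controls, 18% lower in the mean, as for 18.4% of transcripts. The log2 fold change was then -0.29 (SE 0.07, 95% interval -0.44 to -0.14) and passed (adjusted p = 0.0117, against 6.68% of transcripts, 3.44% as lower). With all libraries, it passed in DESeq2 (-0.20, adjusted p = 0.0378) and under total-count scaling in edgeR (-0.34, adjusted p = 0.00501). Of the 13 alternatives run, 9 gave no call, with an adjusted p up to 0.549 in edgeR. The part of the contamination in this difference was not tested.

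The course after fst RNAi was a rise at 24 and 48 hpa. Against 0 hpa it was 0.30 higher on the log2 scale at 24 hpa (SE 0.08, adjusted p = 0.0175) and 0.50 higher at 48 hpa (SE 0.08, adjusted p = 0.000177), where 9.46% and 20.3% of transcripts passed. The 24 hpa call was lost without fst 0 hpa replicate 2 or 3 or fst 24 hpa replicate 3 (adjusted p = 0.0553, 0.0877 and 0.0832). Without fst 48 hpa replicate 1 the 24 hpa value was 0.30 and passed (adjusted p = 0.00177, against 15.9%). The 48 hpa value was 0.42 without fst 48 hpa replicate 1 (adjusted p = 0.000254, against 11.1%), and its call was lost with the compared groups fitted alone (0.51, adjusted p = 0.05002). With all libraries, the change at 6 hpa (0.06, adjusted p = 0.776, against 7.72%) did not pass. Nor did the steps from 6 to 24 hpa (0.24, adjusted p = 0.0723, against 5.6%) and from 24 to 48 hpa (0.20, adjusted p = 0.157, against 1.08%). Without fst 48 hpa replicate 1 the step from 6 to 24 hpa passed (adjusted p = 0.0137, against 11.1%). The step from 24 to 48 hpa was then 0.12 and did not pass (adjusted p = 0.585, against 0.44%). The rise in the mean by 48 hpa was 281 CPM, 54.1% of the 519 CPM of control, or 229.7 CPM and 44.3% without that library. The test of the fst effect by time did not pass with all libraries (adjusted p = 0.0921, against 2.07%) and passed without fst 48 hpa replicate 1 (adjusted p = 0.00456, against 4.09%). The difference in change from 0 to 48 hpa, RNAi minus control, was -0.43 (SE 0.11, adjusted p = 0.0532, against 1.55%) and -0.50 without that library (SE 0.10, adjusted p = 0.00238, against 2.69%). The mean fst effect over the 4 times was 0.07 (SE 0.04, adjusted p = 0.322, against 7.88%), with an exact two-sided permutation p of 0.155. Without that library the mean effect was 0.05 (adjusted p = 0.383, against 9.95%).

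The myoD and fst effects on smedwi-1, each against its own control, were set against each other in the fit of all 48 libraries. The myoD minus fst difference was -0.19 at 0, 6 and 24 hpa alike (adjusted p = 0.581, 0.351 and 0.45) and -0.34 at 48 hpa (95% interval -0.53 to -0.15, adjusted p = 0.092). Of all transcripts, 0.724%, 1.71%, 0.51% and 0.521% passed at the 4 times. At 48 hpa it passed without control-10F replicate 3, fst replicate 2 or fst replicate 3 (adjusted p = 0.0335, 0.0311 and 0.0361). DESeq2 also called it (-0.34, adjusted p = 0.00849). Without fst replicate 1 it was -0.26 (adjusted p = 0.229). Of the 19 alternatives run at 48 hpa, 15 gave no call, with an adjusted p up to 0.689 in edgeR.

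**Figure D4:**
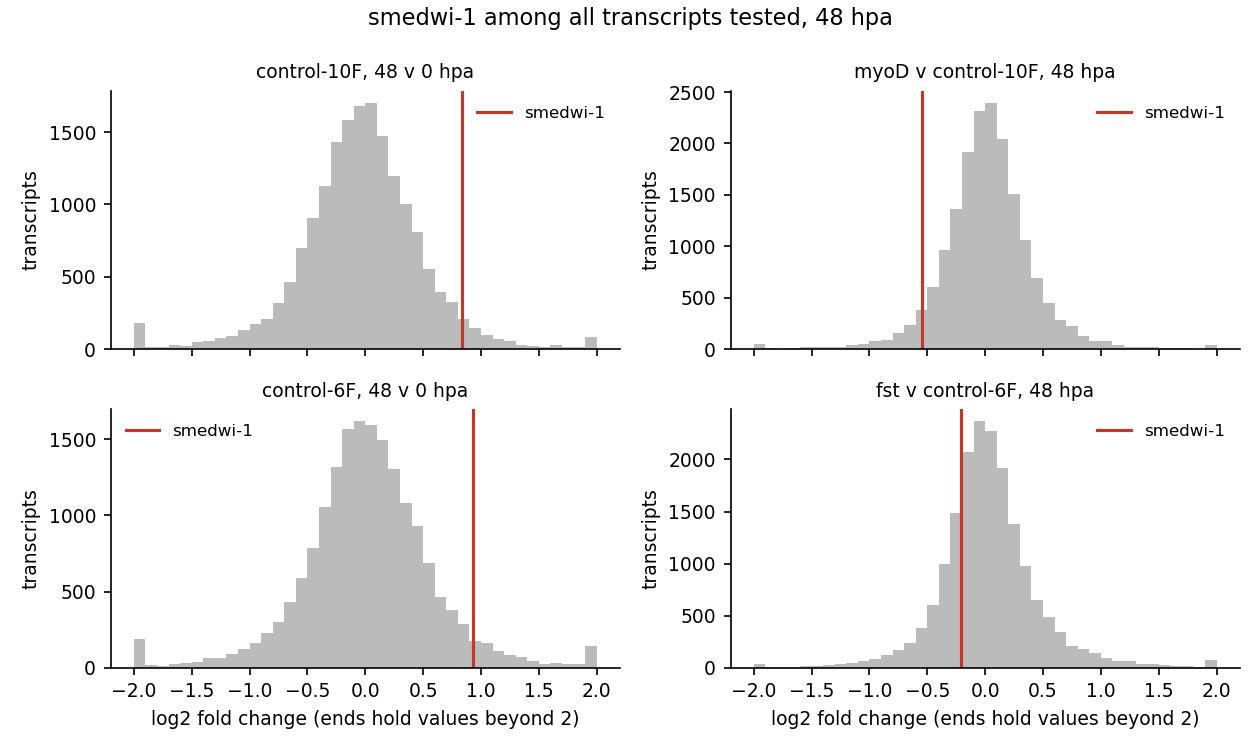
Number of transcripts (vertical axis) by log2 fold change (horizontal axis, bins of 0.1, values beyond 2 in the end bins) at 48 hpa, for control against 0 hpa (left) and RNAi against control (right). The line marks smedwi-1, at 0.83, -0.54, 0.93 and -0.21.

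Ordered by level, the 16 groups spanned a 1.91-fold range. Highest were the 48 hpa controls of the 6-feeding and 10-feeding experiments (1102 and 1044 CPM) and fst at 48 hpa (955 CPM, or 904 CPM without replicate 1). Next came fst at 24 hpa (825 ± 23.3 CPM), the 24 hpa controls (780 ± 19.6 and 750 ± 11.3 CPM), and myoD at 48 hpa (714 CPM) and 24 hpa (697 ± 31.9 CPM). fst at 6 hpa (696 ± 37.2 CPM) and 0 hpa (674 ± 23.9 CPM) stood above myoD at 6 hpa (621 ± 5.17 CPM), both controls at 6 hpa (620 ± 10.8 and 608 ± 27.9 CPM), myoD at 0 hpa (586 ± 11.4 CPM) and the 0 hpa controls (583 ± 26 and 576 ± 14.7 CPM). Of the 15 pairs of neighbours in this order, 11 had overlapping libraries. The 4 pairs without overlap were fst 48 and fst 24 hpa, fst 24 and control-6F 24 hpa, control-10F 24 and myoD 48 hpa, and fst 0 and myoD 6 hpa; the same separation was found for 9.39%, 9.69%, 16.1% and 25.3% of all transcripts. The myoD libraries of 48 hpa also lay below the 6-feeding controls of 24 hpa (18.3% of transcripts). The fst libraries of 0 hpa lay above the 10-feeding and 6-feeding controls of 6 hpa (24.8% and 16.3%).

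Time accounted for 68.8% of the variance of log2 smedwi-1 in the 10-feeding experiment, the myoD effect for 8.69%, its change with time for 18.8% and the spread between replicates for 3.74%. In the 6-feeding experiment these shares were 87.3%, 1.31%, 7.74% and 3.7%. smedwi-1 varied little between replicates: its biological coefficient of variation was 6.56% and 8.96% in the separate fits. Among transcripts of similar read level (within 0.5 on the log2 CPM scale), 23.7% of 156 and 7.09% of 141 varied less.

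Transcripts with the pattern most like smedwi-1 were sought among 9388 others with a mean of at least 10 CPM. By the correlation of 16 group means, dd_Smed_v4_1258_0_1 came first (Pearson r = 0.995) and dd_Smed_v4_756_0_1 second (r = 0.983). By the correlation of the 48 libraries' deviations from their own group means, which holds no effect of time or RNAi, the same pair came first and second (r = 0.86 and 0.84). Median r over the 9388 transcripts was -0.04 and 0.02 by these measures. By group means, 229 of them had r over 0.9 and 49 had r over 0.95, so a course like that of smedwi-1 was shared by many. By deviations, 586 had r over 0.5 and 0 had r over 0.9. Libraries share dissection, depth and scaling, so these values are descriptions. Leaving out control-10F 48 hpa replicate 1 and fst 48 hpa replicate 1, the libraries farthest from the median, gave r of 0.83 and 0.78.

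Both transcripts rose in controls and were lower after myoD RNAi at 48 hpa, with smaller log2 fold changes than smedwi-1. dd_Smed_v4_1258_0_1 went from 610 ± 5.65 CPM at 0 hpa to 954 ± 86.6 CPM at 48 hpa in the 10-feeding controls and from 614 ± 15.3 to 702 ± 26.8 CPM after myoD RNAi (SD, n = 3). Its myoD effect at 48 hpa was -0.44 on the log2 scale (SE 0.06, adjusted p = 9.63e-07). dd_Smed_v4_756_0_1 went from 997 ± 17.1 to 1449 ± 128 CPM in the same controls, with a myoD effect of -0.33 at 48 hpa (SE 0.06, adjusted p = 6.14e-05). After fst RNAi at 48 hpa their differences of -0.21 and -0.03 did not pass (adjusted p = 0.0726 and 0.893). Without fst replicate 1 they were -0.24 and -0.20, and the first passed (adjusted p = 0.0301 and 0.086 in edgeR). In fst 48 hpa replicate 1, dd_Smed_v4_756_0_1 held 1794 CPM against 1286 and 1307 CPM in the other libraries of its group.

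**Figure D5:**
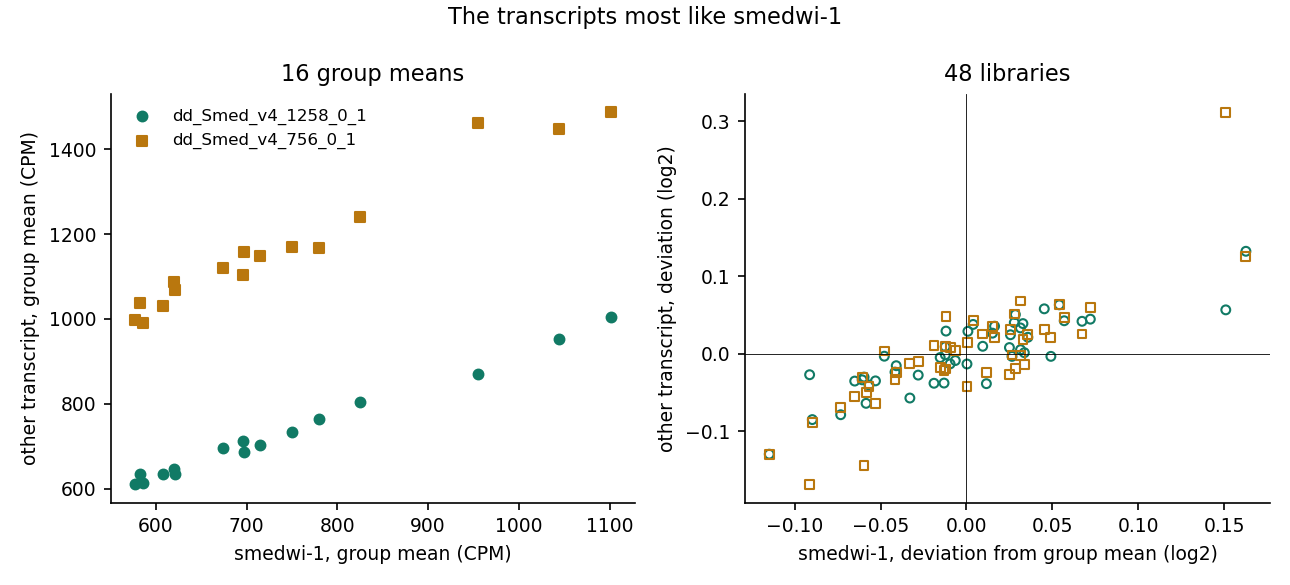
The transcripts most like smedwi-1: group means in CPM (left, 16 groups) and deviations of each library from its group mean on the log2 scale (right, 48 libraries), with smedwi-1 on the horizontal axes. Deviations of smedwi-1 run from -0.11 to 0.16, and the pair of transcripts follow it with r = 0.86 and 0.84.

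A wider set, the 50 transcripts that co-varied most with smedwi-1 between replicates of 1 experiment, was described in the libraries of the other. The lists from the separate experiments shared 8 transcripts, 16% of each. Of the 50 chosen in the 10-feeding libraries, 42 were higher and 0 lower at 48 than at 0 hpa in the 6-feeding controls, with a median log2 fold change of 0.53 against 0.01 over all transcripts, of which 16% were called higher. Of the 50 chosen in the 6-feeding libraries, 40 were higher and 2 lower in the 10-feeding controls (median 0.39, against -0.03 over all and 20.4% called higher). After myoD RNAi at 48 hpa, 35 of these 50 were lower and 1 higher than in control (median -0.37, against 0.01 over all and 12.9% called lower). With the list chosen without fst 48 hpa replicate 1, 34 were lower and 0 higher (median -0.31). In fst RNAi at 48 hpa, 10 of the 50 chosen in the 10-feeding libraries were lower and 0 higher (median -0.20, against 3.6% of all called lower), and 23 lower and 1 higher without that library (median -0.24, against 3.44%). The lists were drawn from transcripts with a mean of at least 10 CPM, whereas the shares and medians beside them are over all transcripts tested. These shares include transcripts with fewer counts and so are not matched to the lists. The lists were chosen from these data, so no test was made on them.

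The authors' deposited tables, from DESeq, gave smedwi-1 an adjusted p under 0.05 in 8 of 20 comparisons. In the authors' deposited table of myoD against control at 48 hpa its fold change was 0.68 (adjusted p = 4.25e-11, with 12% of transcripts under 0.05). For 48 against 0 hpa, the authors' deposited tables gave 1.82-fold in 10-feeding controls and 1.89-fold in 6-feeding controls, 1.21-fold after myoD RNAi and 1.42-fold after fst RNAi, all with an adjusted p under 0.05, as for 24.3%, 12.8%, 4.23% and 4.21% of transcripts. For fst against control at 48 hpa the authors' deposited table gave a fold change of 0.873 with an adjusted p of 0.804 (1.67% of transcripts under 0.05). For 24 against 0 hpa, the 10-feeding controls, 6-feeding controls and myoD RNAi had an adjusted p under 0.05, as for 15.1%, 4.89% and 7.89% of transcripts. After fst RNAi the authors' deposited value for 24 against 0 hpa was 1.23-fold with an adjusted p of 0.352 (2.21% under 0.05).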

How the data were processed

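Per the labels, RNA came from 5 wounds per library and libraries were made with a stranded mRNA kit. DESeq, SAMtools, CASAVA, Bowtie 1.1.1 and cutadapt 1.8 are listed, per the submitters' processing notes; strand setting and treatment of reads matching several transcripts are not given in the sources used here. As raw data the authors deposited raw read counts per transcript, and 20 tables of comparisons. In these, the deposited group means are a normalised signal (counts divided by size factors), the deposited fold change is the ratio of the second mean to the first, the deposited log2 fold change is its logarithm, and the deposited p-value columns hold raw and adjusted values. The sample records of the 6-feeding controls list the fst tables and the reverse, but all 40 mean columns were closest to the group their header names, and the headers were used.

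Transcript counts were fitted with edgeR 4.0.16 (R 4.3.3): filterByExpr, TMM scaling, robust quasi-likelihood F-tests with 1 coefficient per group, and Benjamini-Hochberg adjustment over all transcripts (17527 for the 10-feeding and 17815 for the 6-feeding libraries fitted apart, 18230 for all together). A call is an adjusted p under 0.05; each standard error came from a log2 fold change and its F statistic, and 95% intervals use the fit's degrees of freedom. In all, 40 results of smedwi-1 were planned. smedwi-1 passed every filter. Alternatives were RLE and total-count scaling, no filter, DESeq2 1.42.0, fits of the compared groups alone, a replicate block and leaving out single libraries. The fit was also run on simulated counts. Few transcripts changed in that simulation, so it cannot show how the results depend on the scaling. The named transcripts are the 2 with the highest r by each of 2 measures. The gene and the lists were chosen with earlier results of these data known. No pair of replicates agreed within counting noise (lowest chi-square per transcript 3.83).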

Additional observations from a re-analysis of the deposited data

Results flagged for a closer look

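The effect of myoD RNAi on smedwi-1 differed between times by the test of the effect by time in edgeR (adjusted p = 2.78e-05). The part of that test at 48 hpa, the change from 0 hpa after myoD RNAi minus that in control, was -0.56 on the log2 scale, with all 3 myoD libraries below all 3 control libraries at 48 hpa and overlapping libraries at 0 hpa. Of all transcripts, 11.2% passed the test of the effect by time and 12.9% that of the change to 48 hpa. Libraries wholly below control at 48 hpa were found for 18.7%. In groups of 3 libraries, single libraries that stand apart were not tested for.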

How the results depend on the processing

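Every rise of smedwi-1 in controls at 24 and 48 hpa, the myoD effect at 48 hpa, its mean over times and its change with time kept direction and call under all alternatives run. The size of the control rise from 0 to 48 hpa moved with the scaling. Total counts gave log2 rises of 1.04 in 10-feeding and 1.11 in 6-feeding controls, against 0.83 and 0.93 with TMM. Adding the replicate block changed no call (myoD effect at 48 hpa -0.54 with the block, adjusted p = 6.08e-08). Same-numbered RNAi and control libraries of the same time did not deviate together (r over all transcripts -0.142 to 0.169, over 0.1 in 1 of 24 pairs). Same-numbered libraries of different times were not compared. With 3 libraries per group, these correlations cannot exclude that same-numbered libraries share animals or handling. RLE size factors and no filter on low counts changed no call or direction.

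With total-count scaling, the fst effect at 48 hpa (-0.34), its test by time (adjusted p = 0.00554), its difference in change to 48 hpa (-0.56), the fst step from 6 to 24 hpa (0.35) and the myoD step from 6 to 24 hpa (0.22) became calls, and the myoD effect at 6 hpa (-0.012) and the fst difference in change to 6 hpa (0.0083) reversed. Leaving the most counted transcript out of the totals, a setting chosen after seeing the data, gave -0.37, 0.00575, -0.59, 0.34 and 0.24 for the same 5 calls, and reversed the myoD effect at 6 hpa (-0.011) and the difference of controls at 6 hpa (0.029). DESeq2 called the fst effect at 48 hpa (-0.20), its test by time (0.00196), its change to 48 hpa (-0.41), the fst steps (0.24 and 0.21), the myoD step from 6 to 24 hpa (0.16) and the myoD minus fst difference at 48 hpa (-0.34). Fits of the compared groups alone called the fst effect at 0 hpa (0.21), lost the fst rise at 48 hpa (0.51) and reversed the difference of controls at 0 hpa (-0.00069).

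Leaving out single libraries gave ranges of -0.50 to -0.38 for the fst difference in change to 48 hpa, -0.047 to 0.029 for that to 6 hpa, -0.024 to 0.016 for that of myoD to 6 hpa, -0.018 to 0.046 and -0.064 to 0.0031 for the difference of controls at 0 and 6 hpa, 0.00456 to 0.265 for the adjusted p of the fst effect by time, -0.29 to -0.17 for the fst effect at 48 hpa, 0.27 to 0.32 and 0.20 to 0.27 for the fst changes from 0 and from 6 to 24 hpa, 0.12 to 0.24 for that from 24 to 48 hpa, -0.41 to -0.26 for myoD minus fst at 48 hpa, and -0.0047 to 0.035 for the myoD effect at 0 hpa. The cause of these shifts was not tested. By total counts, 9 of 16 group levels stayed within 1 SD, and by RLE 15; by RLE, dd_Smed_v4_756_0_1 ranked 3 by group means.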
